A study of Mus musculus with 7 samples.

Results

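The microRNA genes described here were measured in neurons sorted from the arcuate nucleus, a feeding centre at the base of the hypothalamus, in E15.5 mouse embryos. The table holds 18335 rows, of which 576 carry a microRNA gene symbol (Mir followed by a digit, or Mirlet). The 287 that reached 1 or more in at least 2 of the 6 independent libraries are the members. The members were thus selected on their TPM values in both groups, and their levels are given as a description. Of the other 289 rows, 123 were listed at 0 in all 6 libraries, 158 reached 1 in 1 library and 8 had values that never reached 1. Just inside the limit, the second highest value was 1.04 for Mir3108, 1.25 for Mir6898 and 1.51 for Mir698. Just outside it, the second highest value was 0.933 for Mir705, 0.748 for Mir218-1 and 0 for Mir6385.

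The groups were 4 libraries of Pomc neurons, which make the precursor of appetite-suppressing peptides, and 2 of Npy neurons, which make the feeding peptide neuropeptide Y. All were fluorescence-sorted from dissected and dissociated arcuate nuclei, with 1 ng of total RNA per library (SMARTer Stranded Total RNA-Seq Kit v2). Of 3 listed sort markers, Pomc and Npy followed the labels. Pomc ranged from 352 to 770 TPM over Pomc replicates and was 24.0 and 59.4 TPM in those of Npy. Npy ranged from 2.11 to 152 TPM over Pomc replicates and was 728 and 513 TPM in those of Npy. In the limma test below Pomc passed (adjusted p = 0.00454) and Npy did not (0.418). Agrp was low and overlapped between groups (0 to 6.82 TPM against 5.53 and 1.75 TPM). The column of Npy replicate 3 was left out, because in all 15223 genes with a value it equals the mean of the other Npy columns times a whole percent from 95 to 105. No source used here gives the mouse strain, the reporter behind the sort or the embryos pooled per library. The p-values therefore cover only the spread among these samples, which may be technical. In bulk RNA of this kind, fewer cells of a type and less RNA per cell cannot be told apart.

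MicroRNAs are made from longer transcripts. The nuclear enzyme Drosha with Dgcr8 cuts out a hairpin, Dicer1 trims it, and a single strand is loaded into an Argonaute protein, which it guides to target mRNAs through its seed, bases 2 to 8 of the mature strand. Many hairpins lie inside other genes and are spliced or cut from their transcripts. Dicer and its products are needed for the survival and function of hypothalamic Pomc neurons in mice. The values here are TPM (abundance per unit of gene length, scaled to the same total in each library) of reads on the hairpin interval in a total RNA library. They do not separate the hairpin, its mature strand and the transcript that contains it.

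The mature strands of the 5 members that passed the test below are shown first, with the seed in capitals, because the comparison turns on them. Sequences and positions are those of RefSeq on GRCm38, the build also called mm10.
miR-1897-3p: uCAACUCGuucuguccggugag
miR-6976-5p: cAGGGAAGuugagaggaaaauug
miR-6976-3p: aUCUCCCUcccaacuccccag
miR-6984-5p: aCUGAAAGgcaaugaaggaggagc
miR-6984-3p: uACUUUCUuuccugucuuucu
miR-6402: gAGCAGUUuucccaggaacccgc
miR-7068-5p: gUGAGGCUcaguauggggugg
miR-7068-3p: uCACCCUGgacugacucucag
None of these seeds is shared with another member. The whole hairpin of Mir1897 lies at chr3:34638464-34638542 on the plus strand, and its mature strand is in capitals.
Mir1897 hairpin: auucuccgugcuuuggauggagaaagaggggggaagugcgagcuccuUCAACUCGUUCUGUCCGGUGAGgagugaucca
RefSeq gave a mature strand for 255 of the 287 members, 435 strands in all with 400 different seeds. Only 29 seeds were shared by at least 2 members, and 58 members share a seed with another.

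The depth behind these values could be read from the table. Multiplied by RefSeq hairpin length, TPM came in whole steps of a library-specific size, within 0.05 of a read. Where a microRNA gene had such a length, this held for 97.9 to 100% of the values above 0. A step is therefore worth 1 read. For a hairpin of 75 bases, 1 read equals 0.848 to 1.28 TPM, so the limit of 1 TPM stands for about 1 read. The microRNA genes with a RefSeq hairpin took 17914 to 22521 reads per library, counted over the values in whole steps. This leaves out the genes without such a hairpin. Members made up 1.53 to 2.25% of total TPM in Pomc neurons and 2.00 and 2.02% in Npy neurons, and the groups overlapped in this share.

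The libraries differed in how many members they held. Values above 0 were found for 155, 195, 228 and 87 members in Pomc replicates 1 to 4, and for 240 and 117 in Npy replicates 1 and 2. Pomc replicate 4 and Npy replicate 2 held the fewest, although their members summed to as much TPM as in the other libraries. Where a member had reads, the median was 124 reads in Pomc replicate 4 and 87 in Npy replicate 2, against 28 to 43.5 in the other 4 libraries. Across all tested genes these same 2 libraries had values for 87.8 and 90.4%, against 95.1 to 97.9% in the others.

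A member was therefore often high in some libraries and listed at 0 in others of the same group. Of the 287 members, 49 (17.1%) had values in all 6 libraries and 101 had values in just 2, while 81.7% of the 13845 tested genes had values in all 6. In 84 members a Pomc library was at 0 while another Pomc library reached at least 50 TPM, and the same held between the Npy libraries for 29. Mir137, a microRNA of neuronal maturation, shows the pattern. It was at 0, 337, 4.19 and 0 TPM in Pomc replicates 1 to 4, which is 0, 256, 4 and 0 reads, and at 16.9 and 0 TPM in Npy neurons. Among members with a mean of 10 to 100 TPM, 11.8% had values in all 6 libraries, against 96.2% of all tested genes with such a mean. The median coefficient of variation over the Pomc libraries was 130% for members and 32.7% for all tested genes.

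**Figure D1:**
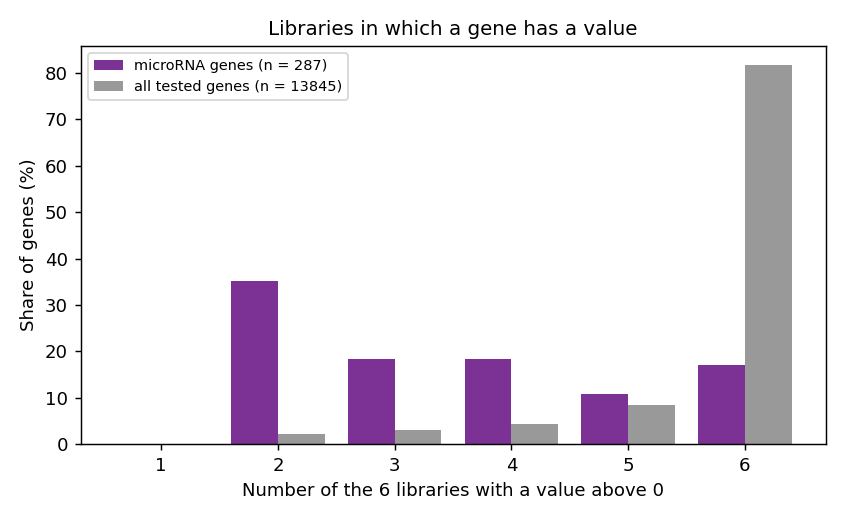
Share of genes (y axis, %) with a value above 0 in 1 to 6 of the 6 libraries (x axis), for the 287 microRNA genes and the 13845 tested genes. The bar at 6 libraries stands at 17.1% for microRNA genes and at 81.7% for all tested genes.

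None of the most abundant members passed the test between groups. Mir5114 led, at 2603, 1916, 2686 and 2597 TPM in Pomc replicates 1 to 4 and at 1609 and 2471 TPM in Npy neurons, which rests on 1193 to 2497 reads per library. The groups overlapped (log2 difference of Pomc minus Npy on log2(TPM + 1) 0.28 ± 0.26, SE, limma adjusted p = 0.86). Its hairpin lies in an exon of Scd2, a fatty acid desaturase gene, at chr19:44303171-44303231. It is shown whole because it is the leading signal, with the mature strand in capitals.
Mir5114 hairpin: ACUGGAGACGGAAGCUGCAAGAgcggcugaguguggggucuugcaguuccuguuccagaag
Scd2 itself stood at 461 to 577 TPM in Pomc neurons and at 316 and 445 TPM in Npy neurons, below the hairpin in every library. How overlapping reads and host length were counted is not known, so this does not show more hairpin than host RNA.

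Next came Mir3064, which lies in Ddx5, the gene of an RNA helicase of the Drosha complex. It stood at 730, 1382, 1470 and 628 TPM in Pomc neurons and at 1368 and 453 TPM in Npy neurons. Mir7654, in an exon of Arglu1, ranged from 531 to 1544 TPM in Pomc neurons, with 1090 and 784 TPM in Npy neurons. Mir8094, in an exon of the splicing helicase gene Ddx39b, was at 678 TPM in Pomc replicate 1 and at 1086 to 1106 TPM in the other Pomc libraries. The Npy libraries held 839 and 1036 TPM of it. The spread within a group was as large as the distance between groups in these genes, and none passed the test.

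Several of the leading hairpins overlap annotated short RNAs that guide the chemical modification of other RNAs. Mir5121 overlaps Snord33 in Rpl13a, and it was the steadiest of the leading members, at 624 to 751 TPM in Pomc neurons and at 730.5 and 709.5 TPM in Npy neurons (log2 difference -0.07 ± 0.16). Mir3069 overlaps Scarna13 and stood at 605 to 810 TPM against 1132 and 754 TPM. Mir6516 overlaps Gm26083, an annotated scaRNA, and Mir1291 overlaps Snora34. In all, 6 members overlap such a gene on the same strand, and their median of the mean level was 449 TPM, against 18.6 TPM over all members.

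The rest of the 15 members with the highest mean did not pass the test either. Mir3082 in Stub1, Mir6418 in Gnb2, Mir6537 in Pou2f2 and Mir686 in Psmb5 had values in all 6 libraries. Mir343 in Ercc2 stood at 138, 15.4, 371 and 245 TPM in Pomc neurons and at 520 and 474 TPM in Npy neurons. Its groups did not overlap, and Pomc replicate 2 was far below the other libraries (log2 difference -2.05 ± 1.00, limma adjusted p = 0.73). Mir7657, in an exon of Fnbp1l, was at 353 to 497 TPM in 3 Pomc libraries and at 0 in Pomc replicate 4. Together, the 9 most abundant members held 38.1 to 52.2% of the summed TPM of all members.

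**Figure D2:**
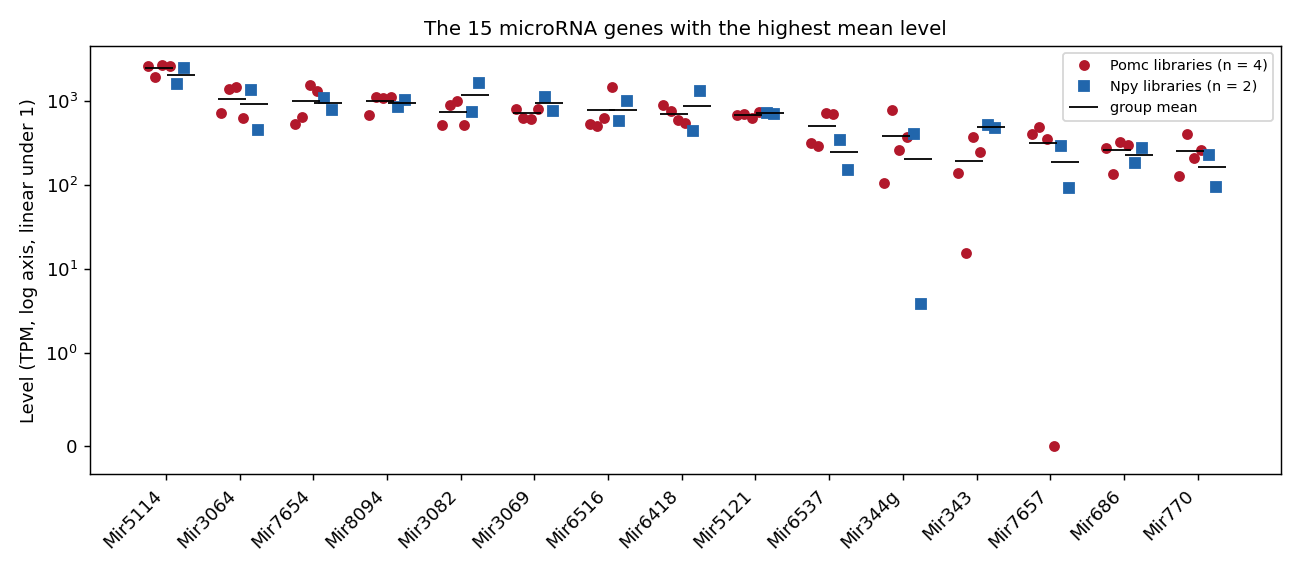
Level (y axis, TPM on a log axis that is linear under 1) of the 15 microRNA genes with the highest mean (x axis) in the 4 Pomc and 2 Npy libraries, with each group's mean as a line. The points of both groups interleave in most genes, and the low points include Mir7657 at 0 in Pomc replicate 4 and Mir344g at 3.86 TPM in Npy replicate 2.

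The comparison of Pomc with Npy neurons asks which members differ between the neuron types. With limma on log2(TPM + 1) over all 13845 tested genes, 5 of the 287 members (1.74%) passed an adjusted p of 0.05, beside 0.412% of all tested genes. Mir1897 was higher in Pomc neurons, where 0.289% of all tested genes were called. Mir6976, Mir6984, Mir6402 and Mir7068 were higher in Npy neurons, where 0.123% of all tested genes were called. At an unadjusted p under 0.05 there were 33 members (11.5%), beside 7.36% of all tested genes. The groups did not overlap in 23 members (8.01%), beside 15.9% of all tested genes. Of these, 5 were higher in Pomc neurons (8.05% of all tested genes) and 18 in Npy neurons (7.86% of all tested genes). The median log2 difference was -0.16 over the members and 0.02 over all tested genes.

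Part of these directions was set by the choice of members. Of the 287, 6 reached 1 TPM in both Npy libraries and in no Pomc library, and these had to be higher in Npy neurons. They include Mir6976, Mir6984 and Mir6402. Another 30 reached 1 TPM in Pomc libraries alone, and all 30 had log2 differences above 0. The other 251 reached it in both groups. Mir1897 and Mir7068 are among the 251, although Mir7068 did so through 1 read in a single Pomc library. Earlier results of these data had already shown Mir1897, and its direction is no independent evidence.

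Mir1897 stood at 136, 134, 112 and 322 TPM in Pomc replicates 1 to 4, which is 169, 110, 116 and 317 reads. In the Npy libraries it stood at 5.21 and 0 TPM, which is 5 and 0 reads. The lowest Pomc library was far above the higher Npy library, and Pomc replicate 4 was above the other Pomc libraries. The log2 difference was 6.02 ± 0.68 (SE, n = 4 and 2, limma adjusted p = 0.00637). The adjusted p was 0.0549 with a pseudocount of 0.1 and 0.0625 with 1 prior variance for all genes, and leaving out any 1 library kept it under 0.05. The size moved more, to 7.33 without Npy replicate 1 and 4.70 without Npy replicate 2, and to 7.78 with a pseudocount of 0.1 and 4.53 with a pseudocount of 5.

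The Mir1897 hairpin lies in an exon of Sox2ot, a long noncoding transcript that runs across the gene of the progenitor factor Sox2. Sox2ot stood at 130, 203, 193 and 153 TPM in Pomc replicates 1 to 4 and at 21.1 and 16.0 TPM in Npy neurons. It was also higher in Pomc neurons, by a log2 difference of 3.12 ± 0.25 (limma adjusted p = 0.0017). The call was lost with a replicate block (limma adjusted p = 0.053). That fit takes its difference from replicates 1 and 2 of each group, since no Npy library used here shares the number of Pomc replicates 3 and 4. The level of the hairpin was 1.05, 0.659, 0.582 and 2.11 times that of Sox2ot in Pomc neurons and 0.247 and 0 times in Npy neurons. Hairpin and transcript thus differed in the same direction, and reads that cover both cannot be told apart here. Sox2 itself stood at 210 to 294 TPM in Pomc neurons and at 39.3 and 42.5 TPM in Npy neurons.

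The members most like Mir1897 across the 6 libraries, by Pearson correlation of log2(TPM + 1), were Mir7220 (r = 0.92), Mir1193 (r = 0.90) and Mir6904 (r = 0.89). Among all other genes the most alike were Tmem65 (r = 0.995), Fstl5 (r = 0.993) and Tle4 (r = 0.990). These values share the same 6 libraries and are a description. Tmem65 stood at 60.5 to 69.6 TPM in Pomc neurons and at 31.8 and 22.8 TPM in Npy neurons.

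The 4 members called higher in Npy neurons had at most 1 read in any Pomc library. Mir6976, in an intron of Srf at chr17:46553827-46553889 on the minus strand, stood at 36.6 and 244 TPM in Npy neurons, which is 28 and 224 reads, and was listed at 0 in all 4 Pomc libraries (limma adjusted p = 0.00913). Mir6984, in an intron of Mrpl21 at chr19:3288920-3288983 on the plus strand, stood at 56.6 and 116 TPM, or 44 and 108 reads, and was listed at 0 in all Pomc libraries (limma adjusted p = 0.00345). Mir6402, in an intron of the neuronal RNA-binding gene Elavl2 at chr4:91373284-91373363 on the minus strand, stood at 58.6 and 30.0 TPM, or 57 and 35 reads, against 0 in all Pomc libraries (limma adjusted p = 0.00729). Groups did not overlap in these genes, and for each the Npy libraries differed from each other, most in Mir6976.

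Mir7068 fills a short intron of Cherp on the minus strand, at chr8:72470016-72470089, with both hairpin ends within 10 bases of the intron ends. It stood at 15.6 and 41.7 TPM in Npy neurons and at 0, 0, 1.03 and 0 TPM in Pomc neurons, where the single value is 1 read (log2 difference -4.48 ± 0.71, limma adjusted p = 0.0358). Its call was lost without any 1 of the 6 libraries, with adjusted p between 0.0645 and 0.639. Without an Npy library, Mir6976, Mir6984 and Mir6402 no longer met the filter. Leaving out a Pomc library cannot move their differences, since all 4 are at 0. The 3 genes lost their calls with a replicate block (limma adjusted p = 0.0766, 0.0647 and 0.107). Mir6402 also lost its call with a pseudocount of 0.1 (0.0518).

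**Figure D3:**
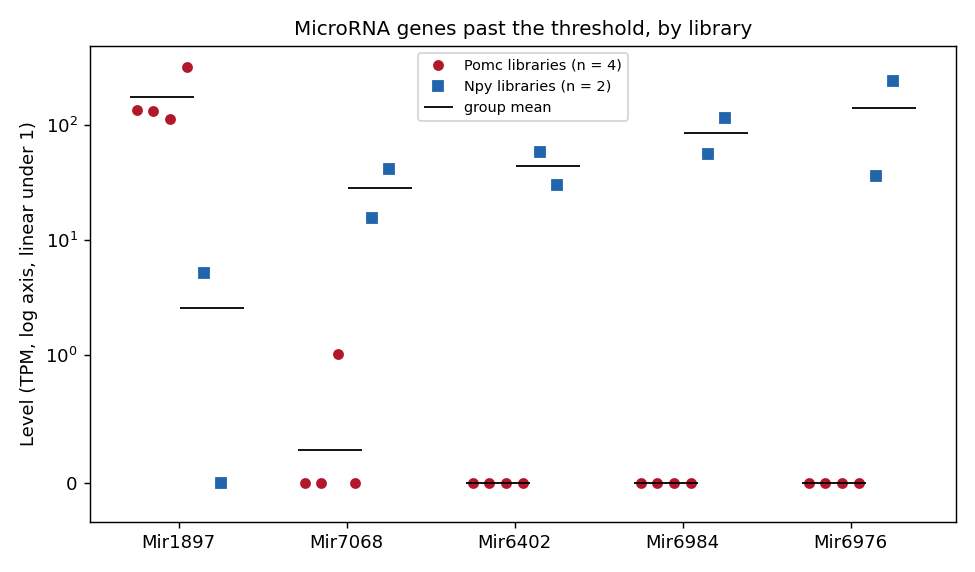
Level (y axis, TPM on a log axis that is linear under 1) of the 5 microRNA genes past the threshold (x axis) in the 4 Pomc and 2 Npy libraries, with each group's mean as a line. Mir1897 lies at 112 to 322 TPM in Pomc neurons, and the other 4 genes have values above 1.03 TPM in Npy neurons alone.

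None of the host genes of these 4 members passed the test. Srf stood at 15.6 to 23.0 TPM in Pomc neurons and at 24.9 and 38.2 TPM in Npy neurons (log2 difference -0.66 ± 0.37, limma adjusted p = 0.79). Mrpl21, a mitochondrial ribosome gene, had -0.41 ± 0.49, Elavl2 had -0.70 ± 0.46 and Cherp had -0.08 ± 0.20. Whether a member differs more than its host was not tested.

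Markers of oligodendrocyte precursors moved with the group in which these 4 members were higher. All 6 listed markers (Pdgfra, Olig1, Olig2, Sox10, Gpr17 and Cspg4) were called higher in Npy neurons, beside 0.123% of all tested genes. Except for Olig1, they stayed under 1 TPM in every Pomc library. They met the filter of tested genes through the Npy libraries alone, so their direction follows from that filter. Their summed level was 0.444 to 2.64 TPM in Pomc neurons and 207 and 228 TPM in Npy neurons, with Olig2 and Cspg4 at 0 in all Pomc libraries. Their part in the microRNA result was not tested. Summed red blood cell markers ranged from 0 to 88.8 TPM over Pomc libraries and reached at most 1.31 TPM in Npy neurons. Summed microglia markers ranged from 0 to 43.0 TPM over Pomc libraries, and the Npy libraries held 3.79 and 9.97 TPM. Of these markers, P2ry12 and Csf1r reached 22.7 and 13.1 TPM in Pomc replicate 4 and at most 0.263 TPM in the other Pomc libraries. C1qb was at most 0.680 TPM in Pomc neurons, while the Npy libraries held 2.71 and 8.33 TPM. Summed endothelial markers ranged from 0.656 to 10.7 TPM over Pomc libraries, with 1.73 and 3.01 TPM in the Npy libraries. The 8 neuronal markers summed to 4775 to 5651 TPM in Pomc neurons and to 3490 and 4131 TPM in Npy neurons. Of these, 6 had log2 differences above 0 and 2, Snap25 and Syp, below 0, and 0 were called.

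Next by adjusted p was Mir675, which lies in an exon of the imprinted transcript H19 and did not pass. It stood at 7.84 and 33.5 TPM in Npy neurons and at 0 in all Pomc libraries (limma adjusted p = 0.0677). It had 8 and 41 reads. Since it reached 1 TPM in Npy neurons alone, its direction follows from the choice of members. Other members with large differences did not pass either. Mir7674 in Nup214 and Mir7079 in Rpl13 had values in 3 Pomc libraries and in no Npy library, with 0, 101, 6 and 219 reads and with 51, 11, 48 and 0 reads. Their direction likewise follows from the choice of members. Mir7220 in Camk2a, Mir1193 and Mir666 were the other members with a large difference towards Pomc neurons, and Mir6942, Mir412 and Mir7045 towards Npy neurons. Mir6942, in an intron of Zkscan3, had 24, 0, 17 and 0 reads in Pomc replicates 1 to 4, and Npy replicates 1 and 2 had 52 and 427.

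A position on GRCm38 could be given to 277 members, 275 hairpins and 2 host transcripts, from RefSeq for 242 and from GENCODE M21 for 35. On the strand of the hairpin, 59 lay at least 50% in an exon of a host gene's basic transcripts, 144 in an intron, and 27 in an intron that other transcripts of the host annotate as exon. The remaining hairpins overlapped a short RNA gene (6), lay only opposite a gene on the other strand (8) or lay outside annotated genes (31). In 8 members the hairpin filled a whole intron, Mir7068 among them. Another 3 members, Mir17hg, Mirlet7bhg and Mir22hg, are host transcripts and not hairpins. Positions were not assigned to Mirlet7bhg and 9 other members. The median of the mean level was 31.6 TPM for hairpins in exons and 13.1 TPM for those in introns.

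Levels of hairpins and hosts were compared for the 222 members whose host is in the table, in 196 different host genes. Hairpins in exons stood at a median of 0.982 times the level of their host, and those in introns at 0.234 times. These are ratios of TPM over intervals of unlike length and do not compare amounts of RNA. Across the 54 exonic members with a tested host, the log2 differences of hairpin and host correlated at Pearson r = 0.62 (Spearman rho = 0.53), and at r = 0.50 without Mir1897. Across the 137 intronic members r was 0.19 (rho = 0.13). Split by level instead, r was 0.50 for the 58 members with a mean of 50 TPM or more and 0.21 for the 163 under it. Position and level were not separated here. The points share the same 6 libraries, some share a host, and many hairpins were listed at 0 in some of the libraries. The SD of the log2 differences was 1.94 for members and 0.72 for their hosts. Only 2 of the hosts were called. Besides Sox2ot this was Robo2, an axon guidance receptor gene with a log2 difference of 2.77 ± 0.44, whose intronic hairpin Mir691 had -0.23.

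**Figure D4:**
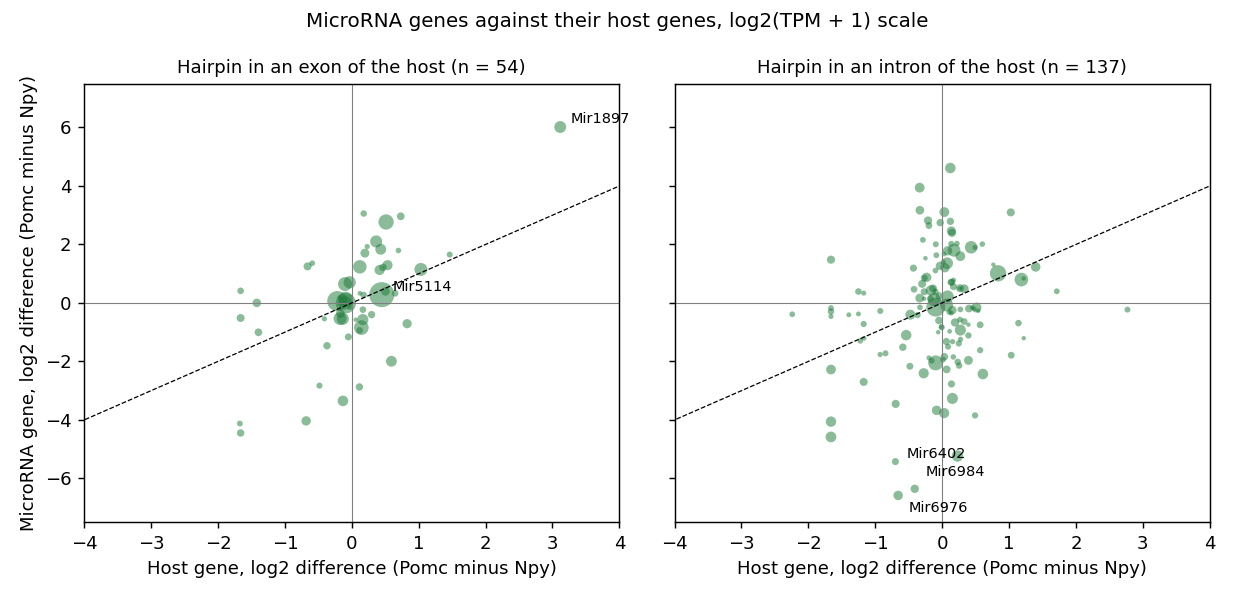
Log2 difference of Pomc minus Npy on the log2(TPM + 1) scale for microRNA genes (y axis) against their host genes (x axis), for 54 hairpins in exons and 137 in introns. Each point is a microRNA gene, larger with a higher mean level, the dashed line marks equal differences, and intronic hairpins spread over a far wider range than their hosts.

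The largest group of members in a single place was the Dlk1-Dio3 domain of chromosome 12, an imprinted region where long noncoding transcripts of the maternal chromosome (Meg3, Rian and Mirg) carry a long row of microRNAs. It held 44 members, and none passed the limma test, with 7 (15.9%) at an unadjusted p under 0.05, beside 7.36% of all tested genes and 11.5% of all members. In the domain, 20 had log2 differences above 0 and 24 below, with a median of -0.15, beside -0.16 over all members. The summed level was 1045, 3070, 2052 and 1410 TPM in Pomc replicates 1 to 4 and 1782 and 1692 TPM in Npy neurons. The groups overlapped. The number of members with values ran from 12 in Pomc replicate 4 and 17 in Npy replicate 2 to 41 in Npy replicate 1.

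Near the start of the domain, Mir770 lies in an exon of Meg3 and had values in all libraries, at 128, 409, 209 and 261 TPM against 231 and 94.1 TPM. Mir1906-1, also in an exon of Meg3, had the same values as Mir1906-2 on chromosome X in every library (89.0 to 314 TPM and 146 and 240.3 TPM). Both share a seed and their reads cannot be assigned to a single copy. Mir127 lies opposite Rtl1, a gene that it is known to repress in the mouse placenta. It stood at 112, 188, 56.8 and 109 TPM in Pomc neurons and at 201 and 0 TPM in Npy neurons, and the Npy libraries lay on either side of all 4 Pomc libraries. Rtl1 stood at 23.6 to 32.3 TPM against 18.5 and 12.9 TPM (limma adjusted p = 0.653).

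Toward the middle of the domain, Mir1193 reached 89.9, 189, 25.9 and 155 TPM in Pomc neurons and 25.2 and 0 TPM in Npy neurons (log2 difference 4.17 ± 1.17, limma adjusted p = 0.335). Mir666 stood at 0, 183, 11.6 and 322 TPM against 1.66 and 0 TPM. Members with differences below 0 lay in several places, among them Mir3070a near the start (log2 difference -3.57) and Mir329 beside Mir1193 (-3.91). Of the 11 members in Mirg, 2 had differences above 0 and 9 below, beside 131 above and 156 below over all members. The groups did not overlap in 3 of the 11 (Mir412, Mir369 and Mir410), all higher in Npy neurons. In that direction the groups did not overlap in 7.86% of all tested genes and 6.27% of all members. Mir412 stood at 0, 34.8, 55.5 and 0 TPM against 85.4 and 298 TPM, and Mir410 at 0, 18.96, 0 and 0 TPM against 55.9 and 36.4 TPM. Mir329, outside annotated genes, also did not overlap between groups, and none of these members passed. Mirg itself stood at 17.4, 54.7, 27.3 and 0.680 TPM in Pomc neurons and at 45.5 and 46.6 TPM in Npy neurons (limma adjusted p = 0.815). Meg3 (396 to 1007 TPM against 1244 and 396) and Rian (382 to 613 TPM against 435 and 376) overlapped between groups.

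**Figure D5:**
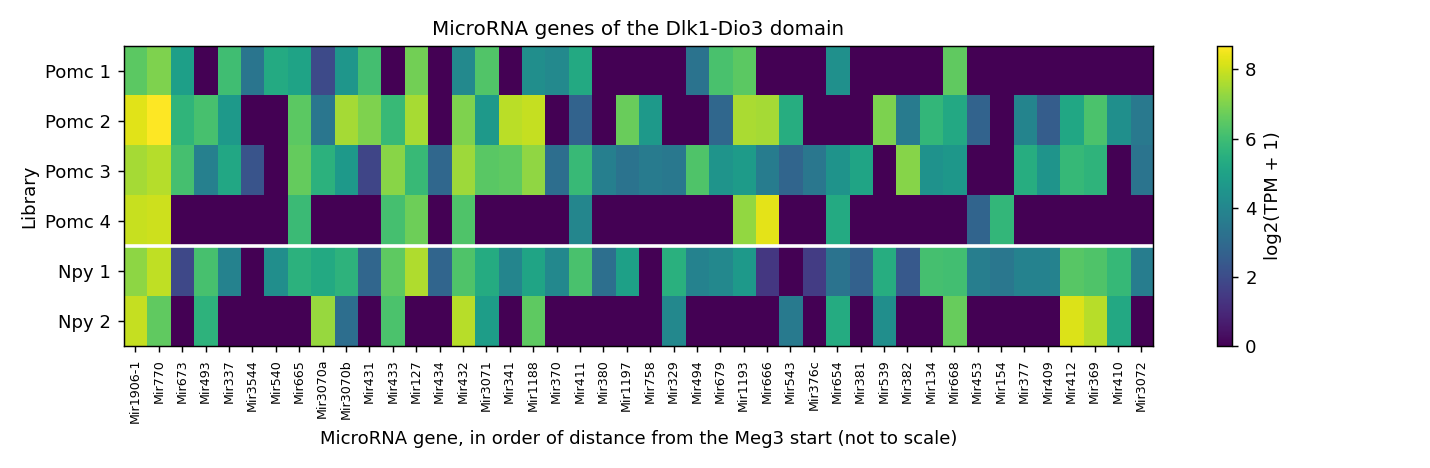
Level on log2(TPM + 1) (colour) of the 44 microRNA genes of the Dlk1-Dio3 domain, ordered by distance from the start of Meg3 (x axis), in the 4 Pomc and 2 Npy libraries (y axis). Pomc replicate 4 and Npy replicate 2 show the most genes at 0, with values in 12 and 17 of the 44.

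Of 37 listed neuronal microRNA genes, 25 were in the table and 12 were members. None of them passed the limma test, beside 0.412% of all tested genes and 1.74% of all members. Of the 12, 1, Mir7b, had an unadjusted p under 0.05, beside 7.36% of all tested genes and 11.5% of all members. Mir9-2, a microRNA of neural progenitors and young neurons, stood at 20.3, 50.7, 42.5 and 0 TPM in Pomc neurons and at 37.7 and 0 TPM in Npy neurons. Mir124a-1, of the family most typical of neurons, had 18.7, 0, 0 and 0 TPM against 1.94 and 16.1 TPM. The other members were at 0 in at least 2 Pomc libraries. These are Mir153, Mir218-2, Mir125b-1, Mir99a, Mir384, Mir488, Mir135a-2, Mir137, Mir7-1 and Mir7b.

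The microRNA-7 family is enriched in the hypothalamus and shares a seed, shown in capitals to mark what Mir7-1 and Mir7b have in common.
miR-7a-5p: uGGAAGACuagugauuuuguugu
miR-7b-5p: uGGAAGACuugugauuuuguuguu
Mir7b, outside annotated genes at chr17:56242988-56243098 on the plus strand, stood at 28.2 and 6.18 TPM in Npy neurons, which is 38 and 10 reads, and was listed at 0 in all Pomc libraries (limma adjusted p = 0.0925). It reached 1 TPM in Npy neurons alone, so its direction follows from the choice of members. Mir7-1, in an intron of Hnrnpk, had 19.5 TPM in Pomc replicate 2, 2.29 and 20.3 TPM in Npy neurons and 0 elsewhere. Of 22 listed microRNA genes of hypothalamic energy balance, 11 were in the table and 5 were members (Mir7-1, Mir7b, Mir103-2, Mir384 and Mir488), and none passed. Over all members 1.74% passed, and over all tested genes 0.412%.

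The let-7 family, which rises as cells mature, has a single seed in its 5p strands.
let-7c-5p: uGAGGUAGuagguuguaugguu
let-7e-5p: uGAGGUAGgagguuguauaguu
let-7i-5p: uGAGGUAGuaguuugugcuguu
Of 10 let-7 genes in the table, 4 were members. Mirlet7e was the highest, at 13.0, 135, 77.3 and 0 TPM in Pomc neurons and at 69.0 and 0 TPM in Npy neurons. Mirlet7c-1 had 65.3 TPM in Pomc replicate 2 and 7.002 TPM in Npy replicate 1, and was at 0 elsewhere. Mirlet7a-2 and Mirlet7i had values in Pomc replicates 2 and 3 alone, at most 4.52 TPM. None passed the limma test, and none had an unadjusted p under 0.05. Over all members these shares were 1.74% and 11.5%, and over all tested genes 0.412% and 7.36%.

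Another shared seed joins the Mir344 genes of chromosome 7, where 5 members have the 5p seed of Mir344g.
miR-344g-5p: aGUCAGGCuccuggcaggagu
miR-344b-5p: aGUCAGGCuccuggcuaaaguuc
miR-344c-5p: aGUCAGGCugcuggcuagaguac
miR-344-5p: aGUCAGGCuccuggcuagauuccagg
Mir344g stood at 105, 777, 263 and 378 TPM in Pomc neurons and at 401 and 3.86 TPM in Npy neurons, with 346 and 4 reads in the latter (log2 difference 2.77 ± 1.43, limma adjusted p = 0.758). Without Npy replicate 1 it was called higher in Pomc neurons (5.95, adjusted p = 0.0251), and without Npy replicate 2 the difference was -0.42. Its relatives Mir344, Mir344-2, Mir344b and Mir344c were at 0 in at least 2 Pomc libraries.

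Of 26 listed microRNA genes of proliferation, 12 had a row in the table, and Mir93 and the host transcript Mir17hg were members. Mir17hg stood at 1.22, 1.07, 8.18 and 0.996 TPM against 3.13 and 8.82 TPM. Of 27 listed microRNA genes of other cell types, 3 had a row and none was a member. The 24 without a row, Mir219a-1 and Mir219a-2 of oligodendrocytes among them, were not analysed here. Of those with a row, Mir219b and Mir219c were at 0 in all 6 libraries, and Mir338 had 26.5 TPM in Pomc replicate 3 alone.

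None of the tested genes that make and use microRNAs passed the test, and all of them had values in all 6 libraries. Since 0.412% of all tested genes passed, 0 calls in a list of this size is near that share. Of 56 listed genes and older symbols, 46 were in the table and 43 were tested. The other 3 were Lin28a, Trim71 and the splicing factor gene Esrp2, which was at 0 in all 6 libraries. The median log2 difference was 0.09. Of the 43, 1 gene, Ran, had an unadjusted p under 0.05 by limma, beside 7.36% of all tested genes. Ran, which drives nuclear export of hairpins with Xpo5, stood at 262 to 328 TPM in Pomc neurons and at 215 and 209 TPM in Npy neurons (log2 difference 0.48 ± 0.17, limma adjusted p = 0.546). Drosha stood at 170.5 to 209.8 TPM against 196 and 163 TPM, Dgcr8 at 30.1 to 81.7 TPM against 68.8 and 58.2 TPM, and Dicer1 at 83.0 to 117 TPM against 110 and 76.2 TPM.

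Ddx5 was the most abundant nuclear factor, at 959 to 1340.4 TPM against 1186 and 979.8 TPM. Among the effectors, Pabpc1, which binds mRNA tails, led with 314 to 397 TPM against 346 and 251 TPM. Ago2, the Argonaute that cuts targets, stood at 115 to 133 TPM against 141 and 153 TPM, without overlap and with a log2 difference of -0.29 ± 0.18 (limma adjusted p = 0.80). Such a lack of overlap in this direction was found in 7.86% of all tested genes. Of the factors that control let-7, Zcchc11 stood at 106 to 217 TPM against 199 and 103 TPM and Lin28b at 12.6 to 27.6 TPM against 19.7 and 6.83 TPM. Lin28a and Trim71 were at most 1.30 TPM. The pathway genes had a median SE of 0.26 for the log2 difference, while the members had 1.46.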

How the data were processed

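The authors deposited 1 table with a column for each of 7 samples, and the header gives no unit. The deposited values were taken as TPM because 6 columns sum to 1000000 and short genes lead. The authors used HISAT2, mm10 and edgeR 3.8, per the submitters' processing notes, which give no roles. No source used here names the counter, the annotation, the use of strand or how length was defined, so reads shared by a hairpin and its host cannot be assigned. The kit was a stranded total RNA kit without stated size selection, per the labels' protocols. Genes with 1 TPM in at least 2 of 6 libraries were tested with limma 3.58.1 in R 4.3.3 (prior variance following mean expression) on log2(TPM + 1), two-sided, with Benjamini-Hochberg adjustment over all 13845 genes. Fold changes on this scale understate those of low genes. The 4 rows with a repeated symbol were left out. Reads behind TPM were estimated with RefSeq hairpin lengths, without molecular identifiers, so duplicates cannot be told from molecules. Members, lists and the rule for named genes (called members, the 15 highest, the 6 largest differences each way, list members, their hosts and leading pathway genes) were chosen with earlier results of these data known.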

Additional observations from a re-analysis of the deposited data

Results flagged for a closer look

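In each of 122 named genes and 5 library measures, the Pomc library farthest from the others was set against the range of the 4 Pomc libraries. Of these, 36 stood apart. The chance rate of about 1 in 20 holds for normally distributed values without ties, and that distribution was not checked for these values. In 22 of them the other 3 Pomc libraries were at 0, so that any value stands apart and the chance rate does not apply. These were, in Pomc replicate 1, Mir124a-1 (18.7 TPM) and Mir540 (38.9 TPM). In Pomc replicate 2 they were Mir7-1 (19.5 TPM), Mir218-2 (10.5 TPM), Mir384 (8.72 TPM), Mirlet7c-1 (65.3 TPM), Mir410 (18.96 TPM) and Mir539 (125 TPM). In Pomc replicate 3 they were Mir7068 (1.03 TPM), Mir7045 (43.7 TPM), Mir125b-1 (2.98 TPM), Mir99a (35.3 TPM), Mir488 (2.81 TPM), Mir135a-2 (57.4 TPM), Mir103-2 (40.9 TPM), Mir329 (10.3 TPM), Mir376c (9.90 TPM), Mir380 (12.5 TPM), Mir381 (32.6 TPM), Mir434 (6.51 TPM) and Mir93 (3.48 TPM). In Pomc replicate 4 it was Mir154 (52.3 TPM).

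The other cases rest on values in more libraries. Mir1897 reached 322 TPM in Pomc replicate 4, and Mir6516 reached 1459 TPM there against 500 to 624 TPM. Mir5114 was lowest in Pomc replicate 2, at 1916 TPM against 2597 to 2686 TPM, and Mir8094 in Pomc replicate 1, at 678 TPM. Pomc replicate 2 was the highest for Mir137 (337 TPM), Mir543 (41.7 TPM) and Mir1197 (102 TPM). Pomc replicate 3 was the highest for Mir382 (138 TPM), Mir494 (77.4 TPM), Mir17hg (8.18 TPM) and Snhg10 (10.6 TPM). It was also the highest in reads counted on microRNA genes with a RefSeq hairpin (22110 against 17914 to 18291). Mrpl21, the host of Mir6984, was lowest in Pomc replicate 4 (12.2 TPM, others 36.7 to 41.4 TPM), and Zcchc11 was lowest in Pomc replicate 1 (106 TPM, others 207 to 217 TPM).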

How the results depend on the processing

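The 5 calls among microRNA genes became 2 with a pseudocount of 0.1 (0 towards Pomc, 2 towards Npy), 9 with all 7 columns (8 towards Npy, which still rest on 2 Npy measurements) and 2 with a replicate block (1 each way, Mir1897 and Mir1839). With 1 prior variance the count towards Pomc was 0. Over all genes the calls numbered 57, and 37, 205 and 12 under the first 3 of these settings. Replicate numbers are shared only as numbers, and the block fit takes its difference from replicates 1 and 2 of each group alone. Deviations of Pomc and Npy libraries with the same number correlated at -0.04 and -0.03. Leaving out 1 library gave 22 to 69 calls over all genes and 1 to 6 among microRNA genes, 0 to 4 towards Npy and 1 to 6 towards Pomc. The extremes came without Npy replicate 2 (1 call, Mir1897) and without Npy replicate 1 (6 calls, all towards Pomc, namely Mir1897, Mir344g, Mir127, Mir1193, Mir7220 and Mir665), and without Pomc replicate 4 there were 3 towards Pomc. With 1 Npy library left, it is assumed to vary like the Pomc group. The median log2 difference of the members ranged from -1.21 without Npy replicate 2 to 1.35 without Npy replicate 1. It was also above 0 with a pseudocount of 5 (0.01) and without the filter (0.10). No call among named genes reversed. Pathway genes had 0 calls by limma under all 15 alternatives. Depth limits the members with few reads most, where 1 read is worth about the 1 TPM of the filter.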
